A study of Mus musculus with 8 samples.

Results

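The addition of Sin3a to mouse pre-iPSCs that already carried a Nanog transgene was described by setting the Nanog+Sin3a arrays against the Nanog arrays, probe by probe. Members were the probes with an intensity above 16 on at least 2 of these 4 arrays, which gave 16587 of the 45281 probes, and 14202 of them named 9330 of the 19057 genes on the array. Pre-iPSCs are cells stalled partway through reprogramming, and these were female, derived from neural stem cells of strain 129/MF1, and carried an Oct4-GFP-IRES-puro reporter. RNA from 8 samples was hybridised to Illumina bead arrays, 2 per group. The series title concerns cooperation of Nanog with the complex of Sin3a and histone deacetylases.

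The Nanog+Sin3a cells carried both transgenes, and the Nanog cells carried Nanog with an empty vector. The Sin3a cells carried Sin3a with an empty vector, and the EV cells carried empty vectors only. Every group shared the PiggyBac vectors with a CAG promoter (a strong promoter that is not limited to a cell type), the drug selection with hygromycin, blasticidin or both, growth in serum with LIF, and collection at day 0, before any change of medium. The arrays of a group are numbered as replicates without a statement of separate cultures, so every p-value below reflects array-to-array spread, which may be technical. RNA was taken from bulk cultures, where fewer cells of a type and less RNA per cell cannot be told apart.

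Sin3a is a scaffold protein without enzymatic activity of its own. It holds the histone deacetylases Hdac1 and Hdac2 together with subunits such as Sap30, Suds3, Rbbp4 and Rbbp7, and DNA-binding factors recruit the assembly to promoters, where removal of acetyl groups from histones usually lowers transcription. Nanog is a homeodomain factor of the pluripotency network that helps embryonic stem cells to self-renew and helps pre-iPSCs to complete reprogramming.

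The 4 arrays were alike in their distribution, with 16336 to 16354 probes above an intensity of 16 on each, and the median log2 value of the tested probes was 6.46 on each of them. Values below 16 were raised to 16, called the floor. Across the tested probes the replicate arrays correlated at r = 0.98 for Nanog+Sin3a, 0.984 for Nanog and 0.993 for EV, and at r = 0.828 for Sin3a, whose second array was noisy at low and middle intensities. These correlations run across probes and not across replicates. That array was left out of the main test of Nanog+Sin3a against Nanog and entered only an alternative fit that held both Sin3a arrays. Values of the Sin3a group are printed with that array second. Of 6 markers listed for pre-iPSCs and pluripotent cells together, Pou5f1 (Oct4) read 903.5 and 1065.7 with Nanog+Sin3a and 956.8 and 1082.6 with Nanog. Epcam was at the floor on all 4 arrays. Fut4 exceeded the floor on 1 Nanog+Sin3a array only (16.1) and Sox2 on 1 Nanog array only (21.7), and Sall4 and Cdh1 are described with their lists. Of 7 naive pluripotency markers, Zfp42, Esrrb and Dppa3 were at the floor on all 4 arrays, and Klf2 (21.7), Tbx3 (30.8) and Tfcp2l1 (71.9) exceeded it on 1 Nanog+Sin3a array only. Dppa5a was just above the floor throughout, at 26.3 and 34 with Nanog+Sin3a and 36.8 and 34.3 with Nanog. Of 6 neural stem cell markers, Pax6, Olig2, Fabp7, Slc1a3 and Sox1 were at the floor on all 4 arrays, and Nes read 60.3 and 57.7 with Nanog+Sin3a and 67.7 and 75.3 with Nanog.

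With Sin3a on top of Nanog 8 genes rose and 0 fell, and the largest rises were in a pair of detoxification enzymes. The glutathione S-transferases Gsta1 and Gsta2 rose 6.04-fold and 5.18-fold, Sin3a itself rose 3.68-fold, and the keratin Krt14 rose 2.47-fold. Rbp7, Stk39, Cbr3 and Pqlc3 rose between 1.77-fold and 2.21-fold. These did not pass when only the Nanog+Sin3a and Nanog arrays were fitted (limma adjusted p = 0.0853 to 0.234). In probes, 10 of 16587 passed upward (0.0603%) and 0 passed downward (0%), with 3 of the 10 belonging to Gsta1. In genes, each read from its brightest probe, 8 of 9330 passed upward (0.0857%) and 0 downward (0%). The test was limma on log2 intensity with Benjamini-Hochberg adjustment over all 16587 probes at 0.05. At an unadjusted p under 0.05 there were 1853 probes, 873 higher and 980 lower with Nanog+Sin3a, and the smallest adjusted p among the lower probes was 0.0719 (limma), for Akr1b8. The count of probes fell to 0 when any single array of either group was left out (either Nanog+Sin3a array or either Nanog array), and it was 5 without either EV array. With both Sin3a arrays in the fit 0 probes were called, and with the filter set to above 16 on all 4 arrays 44 were, 35 up and 9 down.

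Without the test, the arrays of the 2 groups did not overlap for 1932 of 9330 genes that were higher with Nanog+Sin3a (20.7%) and for 1702 that were lower (18.2%). A difference of at least 1 on the log2 scale was present in 56 genes upward (0.6%) and 47 downward (0.504%). The median difference over all genes was 0.01.

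**Figure D1:**
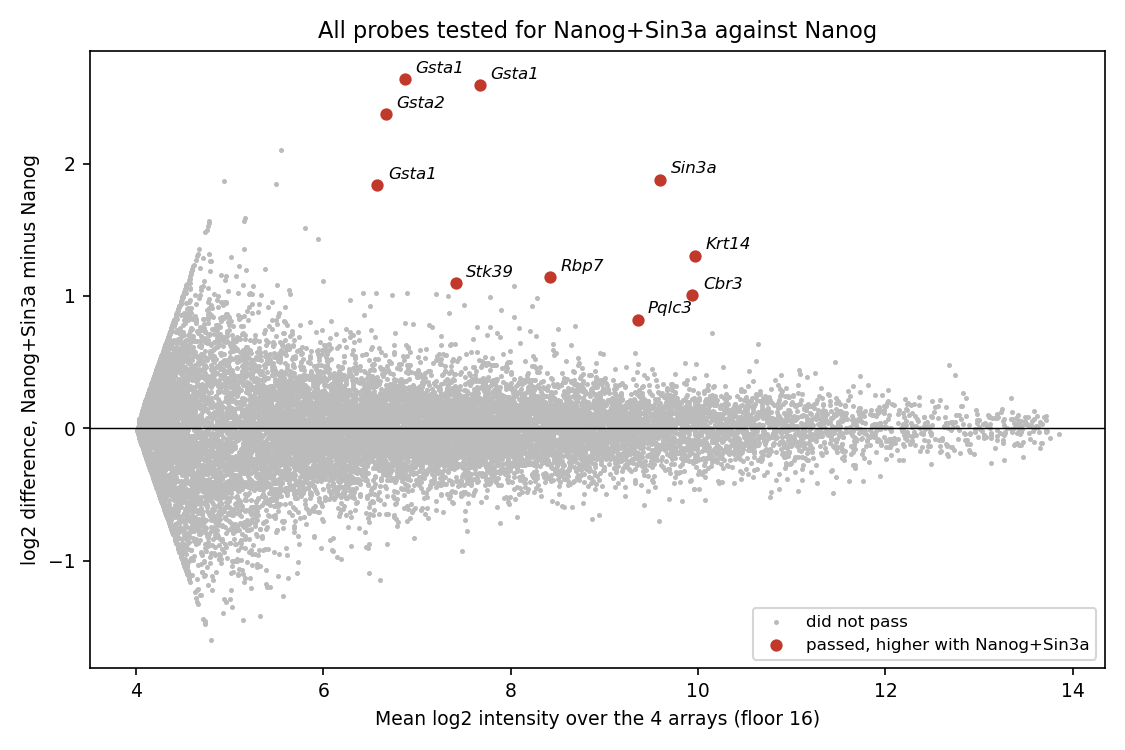
Log2 difference between Nanog+Sin3a and Nanog (vertical axis) against the mean log2 intensity over the 4 arrays (horizontal axis) for the 16587 probes tested. Red points are the 10 probes that passed, all above 0.8, and grey points did not pass. The wedge at the left edge is set by the floor of 16, which is 4 on the log2 scale.

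Sin3a, the added transgene, read 1484.7 and 1483.3 intensity units with Nanog+Sin3a, against 344.4 and 472.5 with Nanog. It read 1182.1 and 1141.6 with Sin3a and 329.3 and 261.8 with EV. Both arrays with Nanog+Sin3a stood above all 4 arrays without the transgene, where a signal of endogenous Sin3a was present. The difference from Nanog was 1.88 on the log2 scale (SE 0.17, limma adjusted p = 0.0115). Nanog, carried by both groups, read 289.5 and 285.2 with Nanog+Sin3a and 364.8 and 485.8 with Nanog, against -7.3 and -12.2 with Sin3a and -3.6 and -5.4 with EV. The Nanog arrays were thus higher without overlap, by a difference of -0.55 (SE 0.17) that did not pass (adjusted p = 0.319). The part of this gap in the other differences was not tested.

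Gsta1 and Gsta2 encode alpha-class glutathione S-transferases, which join glutathione to electrophiles and peroxides. Gsta1 read 579.8 and 430.6 with Nanog+Sin3a, against 88.4 and 77.5 with Nanog. It read 52.7 and -4.6 with Sin3a and 38.6 and 36.2 with EV. The groups did not overlap, and the difference of Nanog+Sin3a from Nanog was 2.59 on the log2 scale (SE 0.18, limma adjusted p = 0.0056). The other 2 Gsta1 probes passed as well, at 2.64 (SE 0.19) and 1.83 (SE 0.18), with the first of them at 326.5 and 262.3 with Nanog+Sin3a, against 46.3 and 47.6 with Nanog.

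Gsta2 read 234.8 and 228.8 with Nanog+Sin3a, against 46.3 and 43.3 with Nanog. It read 19.5 and 55.7 with Sin3a and was at or below the floor with EV, at 8.1 and -0.6. The difference of Nanog+Sin3a from Nanog was 2.37 (SE 0.18, limma adjusted p = 0.0056). The 2 genes are near-copies, so their probes may pick up each other's RNA, and their values may not be independent.

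The promoters of Gsta1 and Gsta2 are shown because the 2 genes rose together and are close relatives. RefSeq sequences of build GRCm38.p6 were used, from 250 bases before to 50 bases after the start of each gene. Gsta1 lies on the plus strand of chromosome 9 (chr9:78230419-78230718) and Gsta2 on the minus strand (chr9:78347096-78347395), and both sequences are written 5′ to 3′ along the gene. Capitals mark the 6 stretches of at least 12 bases that the 2 sequences share in the same order, which come to 117 of the 300 bases, the longest being 29 bases.
Gsta1: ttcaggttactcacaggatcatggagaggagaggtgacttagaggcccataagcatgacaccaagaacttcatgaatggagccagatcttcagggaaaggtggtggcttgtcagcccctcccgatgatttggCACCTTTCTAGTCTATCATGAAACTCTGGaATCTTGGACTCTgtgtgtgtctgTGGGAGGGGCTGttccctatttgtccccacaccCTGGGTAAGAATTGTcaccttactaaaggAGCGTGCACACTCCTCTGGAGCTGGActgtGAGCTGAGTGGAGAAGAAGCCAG
Gsta2: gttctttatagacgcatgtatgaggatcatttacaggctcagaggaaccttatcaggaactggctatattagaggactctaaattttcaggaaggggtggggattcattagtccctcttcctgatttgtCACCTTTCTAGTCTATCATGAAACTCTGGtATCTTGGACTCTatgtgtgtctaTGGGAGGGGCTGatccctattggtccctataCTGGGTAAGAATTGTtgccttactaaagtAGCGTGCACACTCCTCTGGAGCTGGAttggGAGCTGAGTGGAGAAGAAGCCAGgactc
Glutathione S-transferase genes are textbook targets of Nfe2l2 (NRF2), which binds antioxidant response elements. The core of that element, TGACNNNGC, was searched on both strands in 300-base promoters of the same kind. It was present in 0 of the 9 promoters listed for the 8 genes that rose, and in 4071 of all 32851 promoters (12.4%). The 8 genes include Sin3a, whose added copy was carried by a vector with a CAG promoter. The search describes the letters of these windows only, and sequence further from the start was not searched. Whether Nfe2l2 acts on these genes was not tested.

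Krt14, a keratin of basal epithelial cells that forms intermediate filaments, read 1500.1 and 1650.1 with Nanog+Sin3a, against 591.5 and 686.3 with Nanog. It read 835.0 and 750.9 with Sin3a and 541.6 and 495.3 with EV. Both Nanog+Sin3a arrays were the highest of the 8, and the Sin3a arrays lay between them and the rest. The difference of Nanog+Sin3a from Nanog was 1.30 (SE 0.11, limma adjusted p = 0.0115).

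Rbp7, a cellular retinol-binding protein, read 528.2 and 487.8 with Nanog+Sin3a, against 238.2 and 222.2 with Nanog, and 190.3 and 181.4 with EV. The Sin3a arrays, at 226.4 and 12.7, disagreed with each other. The groups with and without Sin3a on top of Nanog did not overlap, at a difference of 1.14 (SE 0.11, limma adjusted p = 0.0196). Stk39 encodes SPAK, a kinase that regulates cation-chloride cotransporters, and read 241.2 and 258.0 with Nanog+Sin3a, against 120.0 and 113.2 with Nanog. It stood at 179.1 and 208.8 with Sin3a and at 151.3 and 147.6 with EV, so that the Nanog arrays were the lowest of the 8. Its difference between Nanog+Sin3a and Nanog was 1.10 (SE 0.13, limma adjusted p = 0.0466). Rbp7 and Stk39 each had another probe that was at the floor on every Nanog+Sin3a and Nanog array and was not tested.

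Cbr3, a carbonyl reductase that acts on quinones and other carbonyl compounds, read 1330.2 and 1456.8 with Nanog+Sin3a, against 661.1 and 727.7 with Nanog. It read 429.3 and 468.1 with Sin3a and 276.7 and 284.5 with EV, so the 4 groups stood apart in that order. The difference of Nanog+Sin3a from Nanog was 1.01 (SE 0.10, limma adjusted p = 0.021). A dimmer Cbr3 probe read 332.9 and 317.0 against 180.1 and 169.1 for the same groups and did not pass (0.90, adjusted p = 0.0856). Pqlc3 encodes a membrane protein of the PQ-loop family and read 876.2 and 864.5 with Nanog+Sin3a, against 511.1 and 474.3 with Nanog. It read 588.2 and 650.9 with Sin3a and 510.9 and 529.4 with EV. The difference of Nanog+Sin3a from Nanog was 0.82 (SE 0.10, limma adjusted p = 0.0466). The other 3 Pqlc3 probes were higher by 0.93, 0.87 and 1.01 without overlap and did not pass.

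**Figure D2:**
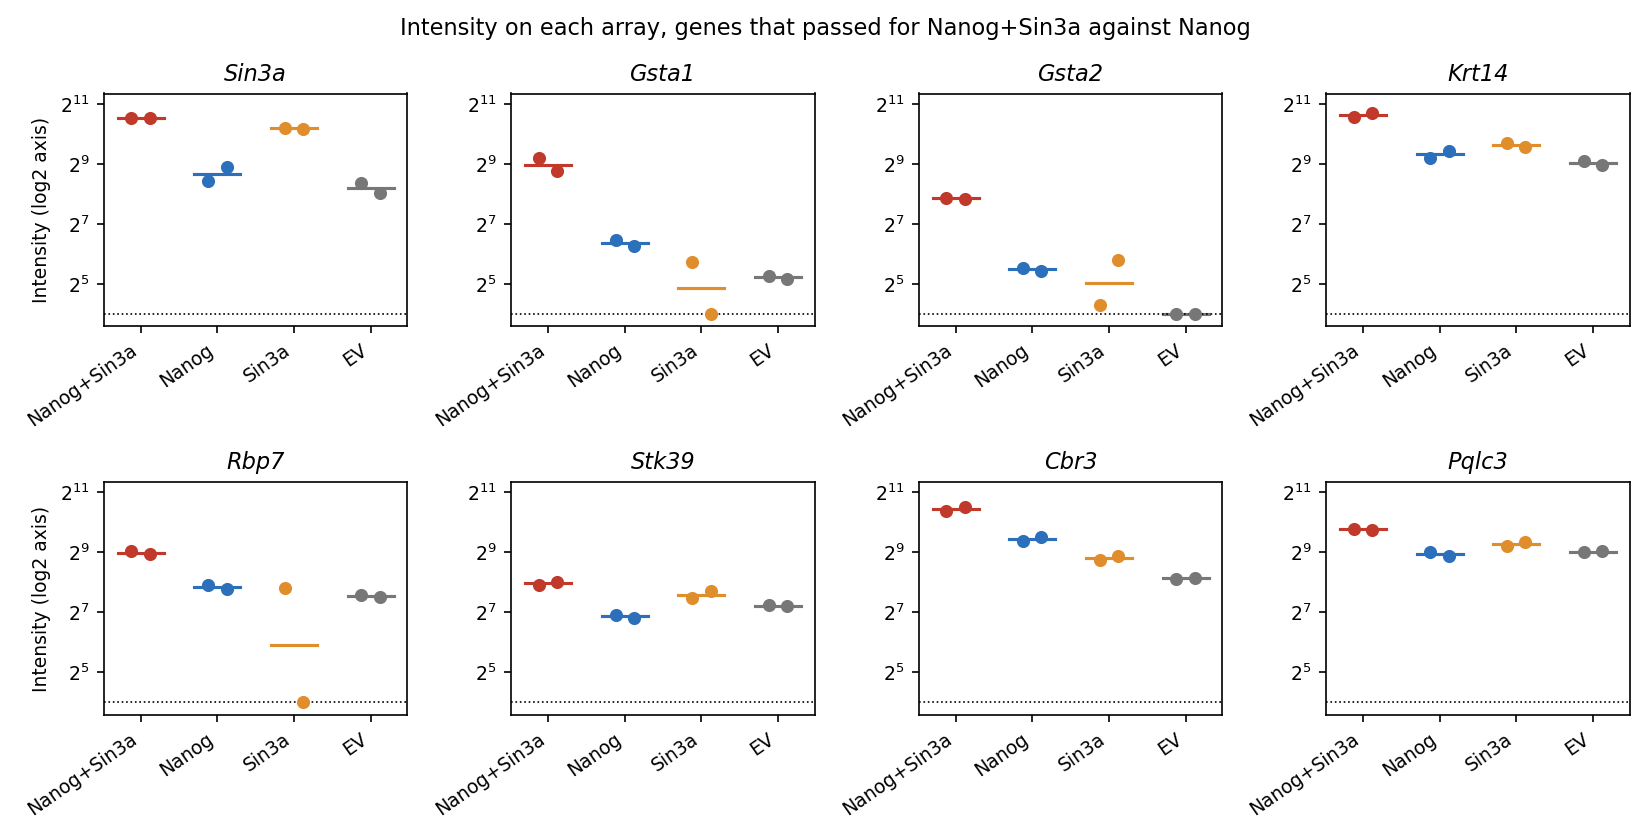
Intensity on a log2 axis for the 8 genes that passed, 1 point per array, with bars at the mean of log2 intensity for Nanog+Sin3a, Nanog, Sin3a and EV (2 arrays each) and a dotted line at the floor of 16. In each panel both Nanog+Sin3a points lie above both Nanog points. For Gsta1 and Rbp7, the second Sin3a array lies at the floor.

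Genes with large differences that did not pass were read as values. Plpp3, a lipid phosphate phosphatase, read 92.6 and 102.3 with Nanog+Sin3a, against 13.7 and 32 with Nanog (log2 2.10, limma adjusted p = 0.139). With EV it read 88.6 and 61.9. Dcn, the matrix proteoglycan decorin, read 92.6 and 79.4 with Nanog+Sin3a, against 16.6 and 34.4 with Nanog (1.84, adjusted p = 0.167 in limma), though a dimmer Dcn probe differed by 0.42. Col6a1, a chain of collagen VI, read 93.5 and 109.7 with Nanog+Sin3a, against 35.1 and 40.1 with Nanog (1.43, limma adjusted p = 0.0719), and another of its probes gave 1.51. Wnt7a, a Wnt ligand, read 111.0 and 79.8 with Nanog+Sin3a, against 39.0 and 48.7 with Nanog (1.11, limma adjusted p = 0.227). All 4 genes were chosen partly because their groups did not overlap, and they were dim compared with the genes that passed. Plpp3, Dcn and Col6a1 also had probes at the floor on every Nanog+Sin3a and Nanog array, which were not tested.

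On the lower side, only 3 genes were at least 1 apart (log2), free of overlap and above 64 on both arrays of the higher group. Stk32a, a serine/threonine kinase, read 76.8 and 56.2 with Nanog+Sin3a, against 139.4 and 151.1 with Nanog (log2 -1.14, limma adjusted p = 0.150). Cav1, the coat protein of caveolae, read 49.7 and 75.8 with Nanog+Sin3a, against 167.5 and 102.3 with Nanog (-1.09, limma adjusted p = 0.264). Limch1, an actin-binding protein, read 30.4 and 43.1 with Nanog+Sin3a, against 75.6 and 78.6 with Nanog (-1.09, limma adjusted p = 0.194). None of the 3 passed, and for Stk32a another probe overlapped between the groups at -0.33. For Limch1 another probe was at the floor on every Nanog+Sin3a and Nanog array and was not tested.

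Relaxing the adjusted p to 0.1 added 11 probes to the 10, 10 of them higher and 1 lower with Nanog+Sin3a. These were chosen after their values were seen. Cadm1, a cell adhesion molecule, read 363.3 and 396.1 with Nanog+Sin3a, against 195.8 and 165.9 with Nanog (log2 1.07, limma adjusted p = 0.0525). Sgk1, a kinase induced by serum and glucocorticoids, read 1423.1 and 1494.7 with Nanog+Sin3a, against 869.8 and 897.4 with Nanog (0.72, limma adjusted p = 0.0555). Cavin2, a caveola component, differed by 0.99, Chst7, a sulfotransferase, by 0.99, Otx1, a homeobox gene, by 1.00, and Ctsc, a lysosomal protease, by 0.77, with its 2 dimmer probes at 0.79 and 0.25. Mme, the peptidase neprilysin, read 51.0 and 44.0 with Nanog+Sin3a and was at the floor on both Nanog arrays, so that this probe was at least 2.96-fold higher (limma adjusted p = 0.0856). The brighter Mme probe, which stands for the gene, read 144.4 and 154.5 with Nanog+Sin3a, against 107 and 116 with Nanog (0.42, limma adjusted p = 0.361). The 1 lower probe belonged to Akr1b8, an aldo-keto reductase, which read 124.9 and 134.6 with Nanog+Sin3a, against 234.9 and 257.9 with Nanog (-0.92, SE 0.13, limma adjusted p = 0.0719). Its EV arrays, at 257.4 and 275.5, lay beside those of Nanog.

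In the gene lists below, "measured" means that the gene's probe passed the filter on low values. A gene on in 1 group only could pass through that group, so the counts describe the measured members and support nothing about the list. Over all genes the same figures are 20.7% higher and 18.2% lower without overlap, with a median of 0.01.

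Of 23 glutathione S-transferase genes on the array, 17 were measured, 2 rose (Gsta1 and Gsta2), 0 fell and 15 did not pass. The list's median difference was 0.01, with 4 genes higher without overlap (23.5%) and 2 lower (11.8%). Gsta4, another alpha-class enzyme that clears lipid aldehydes, read 360.3 and 346.7 with Nanog+Sin3a, against 172.6 and 252.1 with Nanog (0.76, limma adjusted p = 0.251). Gsta3, also of the alpha class, overlapped between the groups, at 229.3 and 312.1 with Nanog+Sin3a and 390.5 and 296.1 with Nanog. Gstm2, of the mu class, was 0.38 higher without overlap. The pi-class genes were lower without overlap, Gstp2 at 372.4 and 409.6 with Nanog+Sin3a and 590.3 and 642.5 with Nanog (-0.66, limma adjusted p = 0.167), and Gstp1 at -0.27.

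Of 22 measured antioxidant and quinone detoxification genes, 1 rose (Cbr3), 0 fell and 21 did not pass, with a median of 0.03. Those higher without overlap were 5 (22.7%), namely Cbr3, Ephx1, Slc7a11, Nqo1 and Srxn1, and 2 were lower (9.09%). The largest fall in the list was in Akr1b8 (-0.92, limma adjusted p = 0.0719). Ephx1, an epoxide hydrolase, read 456.2 and 562.8 with Nanog+Sin3a, against 316.7 and 385.9 with Nanog (0.54, limma adjusted p = 0.272). Slc7a11, the cystine carrier that feeds glutathione synthesis, read 261.0 and 267.1 with Nanog+Sin3a, against 175.8 and 204.0 with Nanog (0.48, limma adjusted p = 0.290). Nqo1, a quinone reductase, read 261.2 and 249.6 with Nanog+Sin3a, against 188.4 on both arrays with Nanog (0.44, limma adjusted p = 0.274). Nfe2l2 itself was lower without overlap (-0.36), at 68.2 and 60.3 with Nanog+Sin3a and 75.5 and 90.3 with Nanog. Its inhibitor Keap1 overlapped between the groups (-0.06), as did Hmox1, the inducible haem oxygenase (-0.24).

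**Figure D3:**
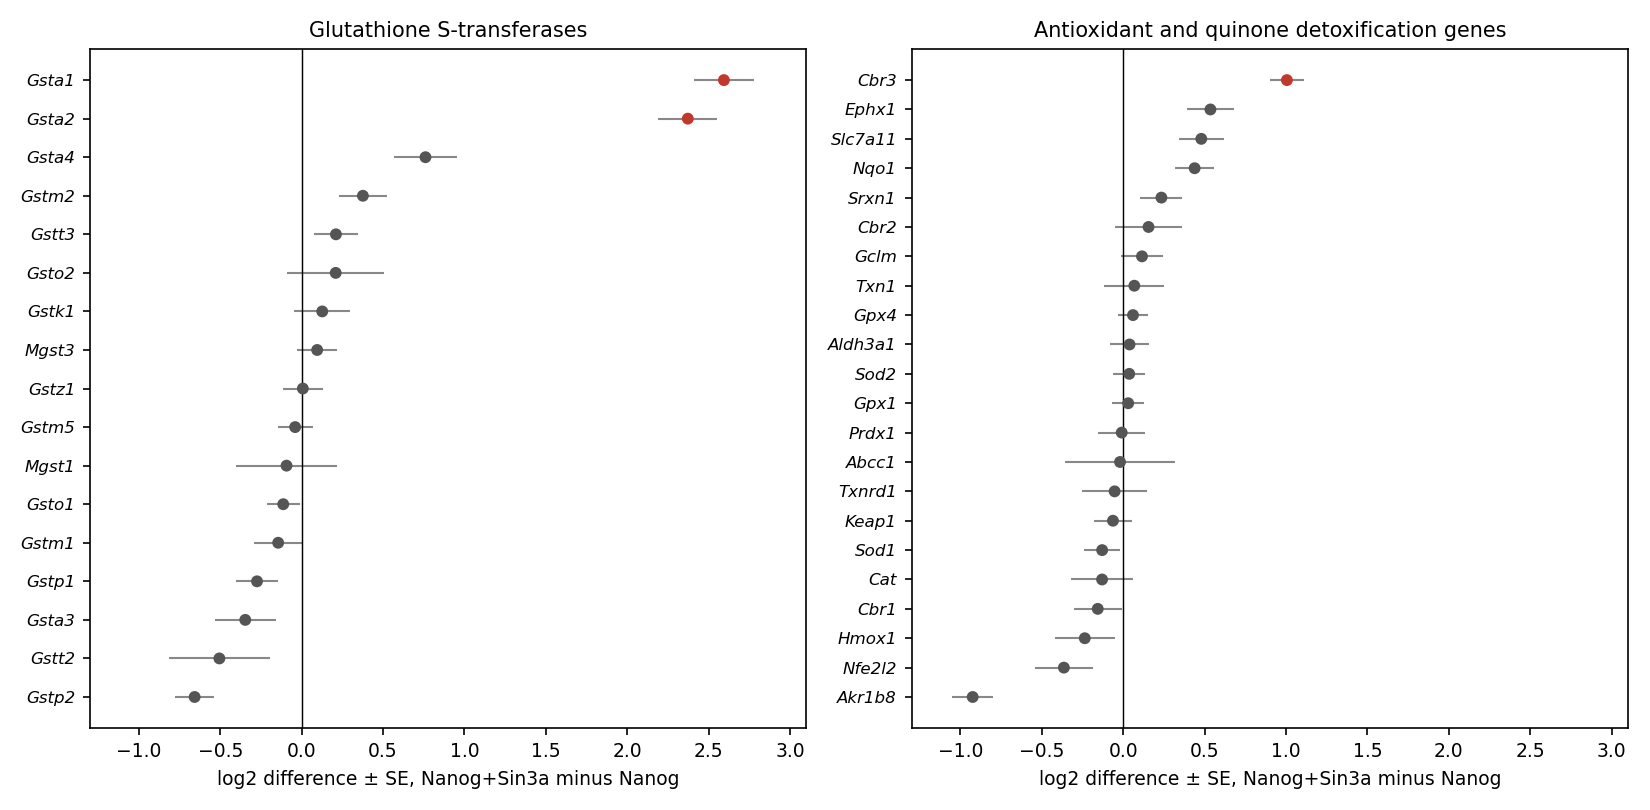
Log2 difference between Nanog+Sin3a and Nanog with its standard error from the fit (horizontal bars) for the 17 measured glutathione S-transferase genes (left) and the 22 measured antioxidant and quinone detoxification genes (right). Red points passed the test (Gsta1, Gsta2 and Cbr3) and dark points did not.

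Of 20 measured genes of the Sin3 complex and its partners, Sin3a rose, 0 fell and 19 did not pass, with a median of -0.08. Sap30, which binds Sin3a directly, read 2899.6 and 2651.9 with Nanog+Sin3a, against 2433.6 and 2290.8 with Nanog (0.23, limma adjusted p = 0.407). The deacetylase Hdac2 read 1747.9 and 1737.3 with Nanog+Sin3a and 1739.0 and 1384.2 with Nanog, with overlap (0.17). Suds3, which supports deacetylase activity of the complex, was 0.17 higher and the paralogue Sin3b 0.11 higher, both without overlap. Rbbp7, a histone-binding subunit, was lower, at 752.0 and 739.4 with Nanog+Sin3a and 923.1 and 1063.0 with Nanog (-0.41, limma adjusted p = 0.272). Tet1, a methylcytosine dioxygenase that associates with Sin3a, was dim and lower, at 26.2 and 31.4 with Nanog+Sin3a and 50.4 and 47.0 with Nanog (-0.76, limma adjusted p = 0.278). Of 25 measured genes of NuRD and other corepressors, 0 passed, with a median of -0.04, and their largest differences were in Hdac9 (0.74, at the floor with Nanog) and Chd3 (-0.60, overlapping).

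Of 28 pluripotency factors on the array, 11 were measured and 0 passed in either direction. Their median was -0.25, with 0 higher and 7 lower without overlap (63.6%). The 7 were Nanog, Sall4, Fgf4, Klf5, Gdf3, Dppa5a and Fbxo15. The Nanog signal came with the transgene that both groups carried. Dppa5a was near the floor, at 26.3 and 34 with Nanog+Sin3a and 36.8 and 34.3 with Nanog. Sall4, a zinc finger protein that supports self-renewal, read 88.5 and 98.5 with Nanog+Sin3a, against 171.1 and 134.8 with Nanog (-0.70, limma adjusted p = 0.239). Gdf3, a TGF-beta family ligand, read 1467.2 and 1249.7 with Nanog+Sin3a, against 1613.0 and 1894.4 with Nanog (-0.37, limma adjusted p = 0.332). Pou5f1 (-0.05) and Klf4 (0.07) overlapped between the groups. Those not measured included Sox2, Klf2, Esrrb, Tbx3, Zfp42, Prdm14 and Nr5a2.

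LIF, acting through Jak1 and Stat3, supports self-renewal of mouse embryonic stem cells, and ERK signalling favours their exit from it. Of 17 measured LIF and Stat3 genes, 0 passed, 1 was higher (5.88%) and 9 were lower (52.9%) without overlap, with a median of -0.19. Socs3, a feedback inhibitor of Stat3, read 258.0 and 283.0 with Nanog+Sin3a, against 390.7 and 357.6 with Nanog (-0.47, limma adjusted p = 0.249). Bcl3, a nuclear IkB protein, read 51.0 and 39.5 with Nanog+Sin3a, against 77.3 and 80.9 with Nanog (-0.82). Jak1, the receptor kinase, was dim, at 6.7 and 23.8 with Nanog+Sin3a and 40.7 and 33.7 with Nanog (-0.92, limma adjusted p = 0.295), and Stat3 overlapped between the groups (-0.07). Of 19 measured ERK feedback and immediate early genes, 0 passed, 1 was higher (5.26%) and 9 were lower (47.4%) without overlap, with a median of -0.17. Etv1, an ETS factor, read 100.3 and 92.5 with Nanog+Sin3a, against 159.3 and 148.2 with Nanog (-0.67, limma adjusted p = 0.194). Egr2, an immediate early zinc finger factor, was dim, at 21.2 and 22.2 with Nanog+Sin3a and 35.7 and 41.2 with Nanog (-0.82, limma adjusted p = 0.262). Egr1 was lower by less (-0.22), and Dusp6, the ERK phosphatase, overlapped between the groups (-0.06).

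Of 14 measured epithelial genes and keratins, Krt14 rose, 0 fell and 13 did not pass, with a median of 0.17. Krt8, a keratin of simple epithelia, read 899.3 and 1198.7 with Nanog+Sin3a and 816.0 and 821.5 with Nanog (0.34, limma adjusted p = 0.401). Tuft1 read 1254.5 and 1133.3 with Nanog+Sin3a, against 950.9 and 758.2 with Nanog (0.49, limma adjusted p = 0.275). Lamb3, a laminin chain of epithelial basement membrane, was dim and lower, at 22.7 and 8.0 with Nanog+Sin3a and 41.0 and 41.5 with Nanog (-1.11). Cdh1, the epithelial cadherin, read 26.4 and 22.9 with Nanog+Sin3a and 19.6 and 2.8 with Nanog, near the floor on all 4 arrays.

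Of 23 measured mesenchymal and matrix genes, 0 passed, 7 were higher (30.4%) and 5 lower (21.7%) without overlap. The median was 0.08, with Dcn and Col6a1 at the top. Of 8 mesenchymal markers, 5 (Thy1, Twist1, Snai2, Dcn and Acta2) were above the floor on all 4 arrays, and Col1a2 and Pdgfrb were at the floor on all 4. The summed intensity of the 8 markers was 1530.5 to 1763.7 with Nanog+Sin3a and 1879.0 to 2012.6 with Nanog. Thy1 read 341.8 and 391.7 with Nanog+Sin3a, against 508.3 and 443.8 with Nanog. Acta2 was also lower without overlap, Dcn was higher, and Twist1 and Snai2 overlapped between the groups. Of 15 measured smooth muscle and contractile genes, 0 passed, 1 was higher (6.67%) and 5 lower (33.3%) without overlap, with a median of -0.09. Tpm2, a tropomyosin, read 45.9 and 40.8 with Nanog and was at the floor on both Nanog+Sin3a arrays, at -5.6 and 0.4, so that it was at least 2.70-fold lower (limma adjusted p = 0.128). Cnn2, a calponin, read 73.8 and 61.9 with Nanog+Sin3a and 37.7 and 51.6 with Nanog (0.62, limma adjusted p = 0.440).

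The blood markers Lyz2 and Tyrobp were at the floor on all 4 arrays, and the sum of 3 blood markers was 4.0 to 8.8 with Nanog+Sin3a and 0 to 25.0 with Nanog. The sum of 4 endothelial markers was 111.7 to 148.8 with Nanog+Sin3a and 98.8 to 109.5 with Nanog, led by Tek, the angiopoietin receptor (90.6 and 89.9 with Nanog+Sin3a, 57.4 and 66.5 with Nanog). Flt1, a VEGF receptor, read 393.8 and 396.5 with Nanog+Sin3a, against 255.9 and 231.0 with Nanog (0.70, limma adjusted p = 0.150). The sum of 6 neural stem cell markers was 60.3 to 63.2 with Nanog+Sin3a and 80.3 to 93.9 with Nanog, and most of it was Nes. Of 6 measured neural progenitor genes 0 passed, with a median of -0.31, and Sox11 read 142.0 and 145.2 with Nanog+Sin3a, against 241.8 and 221.3 with Nanog (-0.69, limma adjusted p = 0.155), while Cd24a overlapped at -0.53. Of 7 measured neuronal genes 0 passed, 3 were higher (42.9%) and 0 lower (0%) without overlap. Homer2, a synaptic scaffold, read 601.7 and 606.7 with Nanog+Sin3a, against 410.9 and 402.9 with Nanog (0.57, limma adjusted p = 0.167). Map2, a dendritic microtubule protein, differed by 0.76, and both were among the 3. Of 12 measured genes of primitive endoderm and trophectoderm 0 passed, 5 were higher (41.7%) and 2 lower (16.7%) without overlap, with a median of 0.22. Srgn read 182.3 and 202.2 with Nanog+Sin3a, against 131.1 and 130.9 with Nanog (0.55). Hnf4a was at the floor with Nanog and differed by 0.81. Of 4 measured primitive streak genes 0 passed, and Wnt5a read 51.3 and 39.7 with Nanog+Sin3a, against 76.3 and 82.6 with Nanog (-0.81, limma adjusted p = 0.272), with Cdx1 near the floor at -0.40. Of 2 measured genes of astrocytes and oligodendrocytes 0 passed, with Cnp at -0.32 and Mobp near the floor, overlapping between the groups.

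Lists for growth and signalling gave small medians and no member that passed. The medians were 0.15 for 11 genes of the insulin-like growth factor axis, 0.04 for 19 receptor tyrosine kinases, 0.08 for 11 genes of the Wnt pathway and -0.05 for 22 of the TGF-beta and BMP pathway. Igfbp6, which binds insulin-like growth factors, differed by 0.48 and Igfbp5 by -0.55, both without overlap. Wnt5b, a Wnt ligand, was near the floor and differed by -0.82, and Ltbp1 (-0.75), which holds latent TGF-beta, and Bmpr1a (-0.38), a BMP receptor, overlapped between the groups. Ret, the GDNF receptor kinase, read 57.8 and 67.7 with Nanog+Sin3a, against 32 and 36.4 with Nanog (0.87). Annexin and S100 genes had a median of 0.09 over 15, with 5 higher (33.3%) and 1 lower (6.67%) without overlap. S100a1, a calcium-binding protein, read 410.7 and 447.1 with Nanog+Sin3a and 270.4 and 313.9 with Nanog (0.56), and S100a13 differed by 0.50. Surface markers of reprogramming had a median of 0.04 over 12, with 4 higher (33.3%) and 2 lower (16.7%) without overlap. Itgav differed by 0.46 and Cd24a by -0.53. The interferon response had a median of -0.10 over 16, with 3 higher (18.8%) and 4 lower (25%) without overlap. Irf9 differed by -0.65 and Ddx58, an RNA sensor, by -0.48.

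Cell cycle lists also held no member that passed. Of 38 measured DNA replication genes, 3 were higher (7.89%) and 11 lower (28.9%) without overlap, with a median of -0.01. Rpa3, a subunit of the single-strand binding protein, read 821.5 and 871.7 with Nanog+Sin3a, against 1160.4 and 1159.7 with Nanog (-0.46, limma adjusted p = 0.198), and the primase subunit Prim1 was dimmer, at -0.60. Of 22 mitosis genes, 3 were higher (13.6%) and 5 lower (22.7%) without overlap, with a median of -0.04. Bub1b, a checkpoint kinase, read 482.7 and 500.0 with Nanog+Sin3a, against 645.2 and 664.1 with Nanog (-0.41). The phosphatase Cdc25c differed by 0.43. Of 18 p53 targets and CDK inhibitors, 5 were higher (27.8%) and 5 lower (27.8%) without overlap, with a median of -0.01. Cdkn1c, at the floor with Nanog+Sin3a, differed by -0.84 and Trp53inp1 by 0.54 with overlap.

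**Figure D4:**
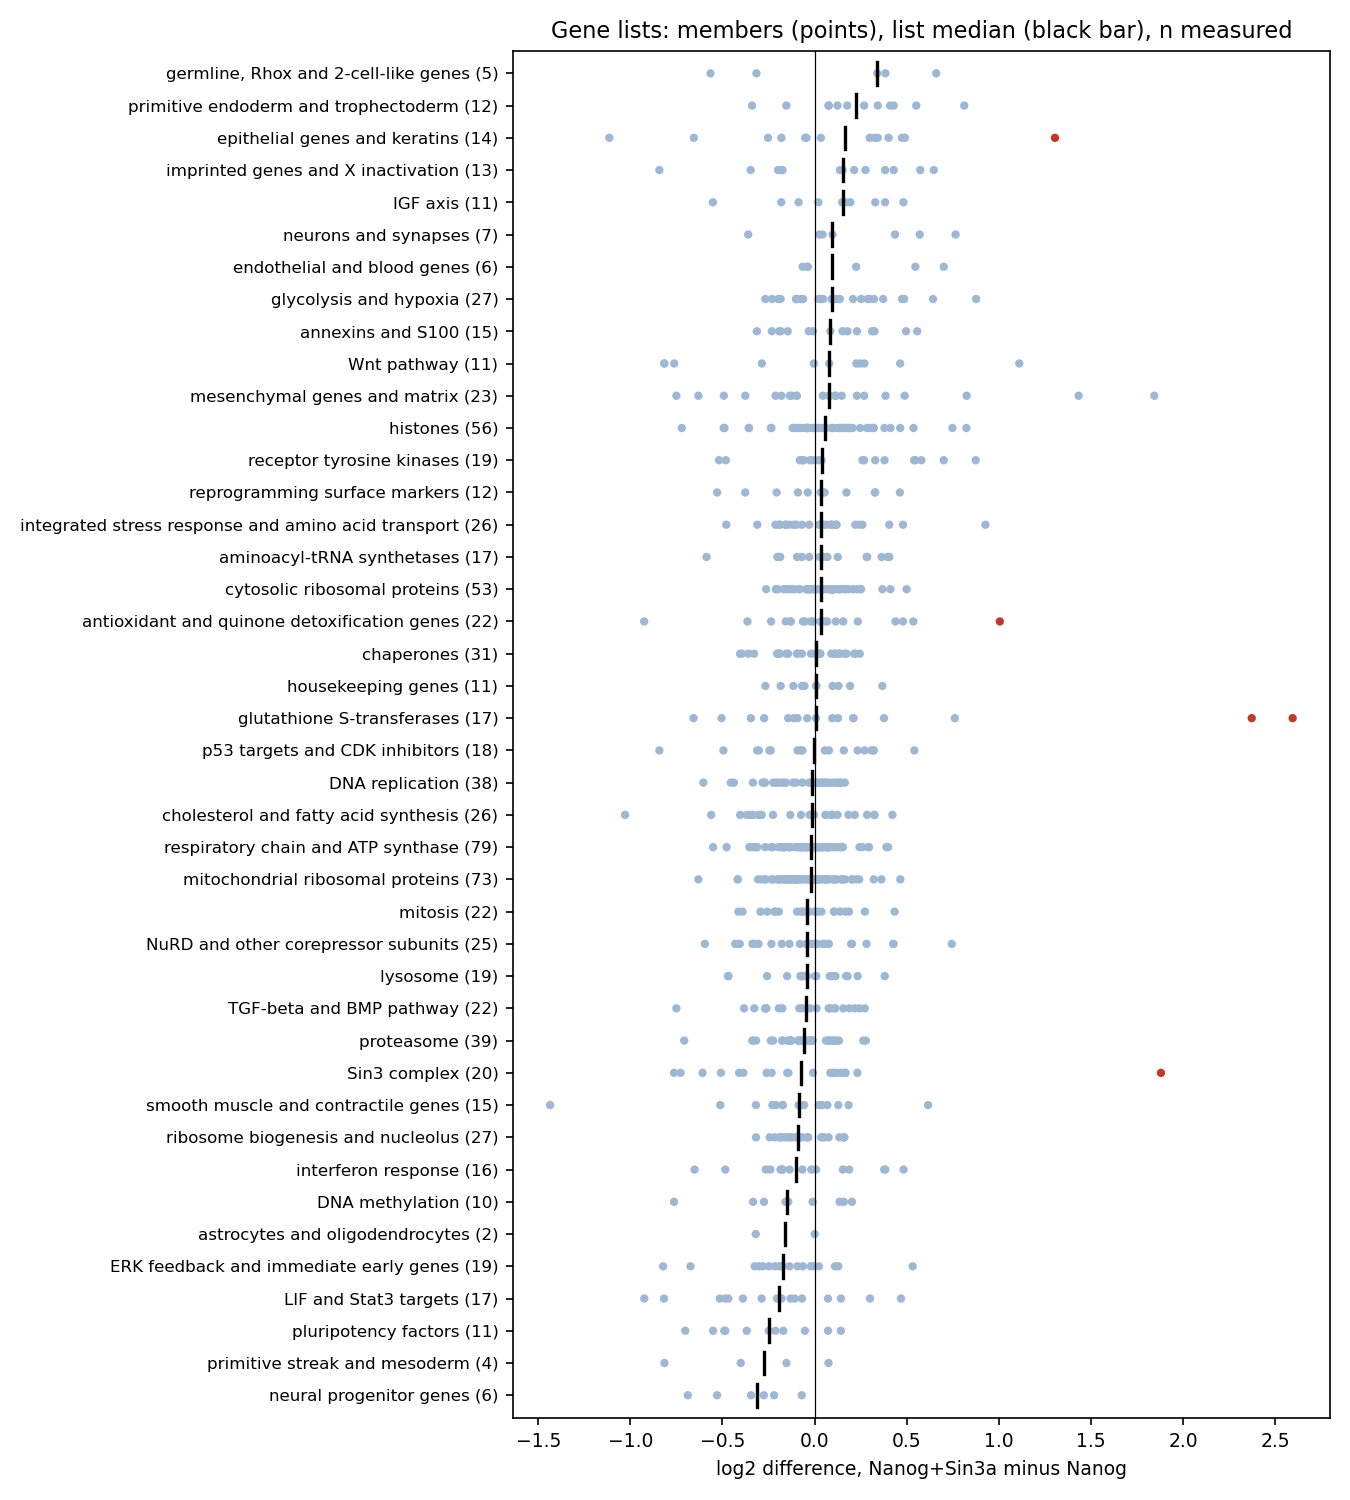
Log2 difference between Nanog+Sin3a and Nanog for the measured members of 42 gene lists (1 point per gene, number measured in brackets, black bar at the list's median), ordered by median. Red points are the members that passed (Sin3a, Gsta1, Gsta2, Cbr3 and Krt14) and blue points did not pass. List medians lie between -0.31 and 0.34, against 0.01 over all genes.

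Whether the Sin3a effect differed with and without Nanog was tested as the difference of Nanog+Sin3a from Nanog minus the difference of Sin3a from EV. Because the second Sin3a array was noisy at low intensity, this used 2670 bright probes, those with a mean above 512 intensity units (9 on the log2 scale) over the 8 arrays. Of these, 1 passed (0.0375%), with 170 at an unadjusted p under 0.05, 90 of them higher and 80 lower. The gene was Acta2, the smooth muscle actin, which read 566.2 and 443.3 with Nanog+Sin3a and 710.7 and 718.0 with Nanog. It read 850.8 and 940.3 with Sin3a and 473.5 and 408.2 with EV. Sin3a went with lower Acta2 intensity on top of Nanog (-0.51, limma adjusted p = 0.272 in that comparison) and with higher intensity without Nanog (1.02), and the groups did not overlap in either case. The difference between these 2 effects was -1.54 (SE 0.21, limma adjusted p = 0.000812). Without the second EV array it was -1.43 and did not pass (limma adjusted p = 0.0503, 0 probes called), while 21 probes were called without the first Nanog array and 2 without the second Nanog array or the first EV array.

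For the 4 genes that rose on top of Nanog and were bright enough for this test, the difference of effects did not pass. Sin3a RNA rose by 1.88 (log2) with Nanog and was 1.98 higher without it, a difference of -0.10 (SE 0.22, limma adjusted p = 0.950). Krt14 differed by 1.30 with Nanog and 0.61 without it (0.69, SE 0.18, limma adjusted p = 0.400). Cbr3 differed by 1.01 with Nanog and 0.68 without it (0.33, SE 0.19, limma adjusted p = 0.836). Pqlc3 differed by 0.82 with Nanog and 0.25 without it (0.57, SE 0.19, limma adjusted p = 0.663). These tests did not show unequal effects, nor do they show equal ones. Gsta1, Gsta2, Rbp7 and Stk39 were too dim for this test.

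**Figure D5:**
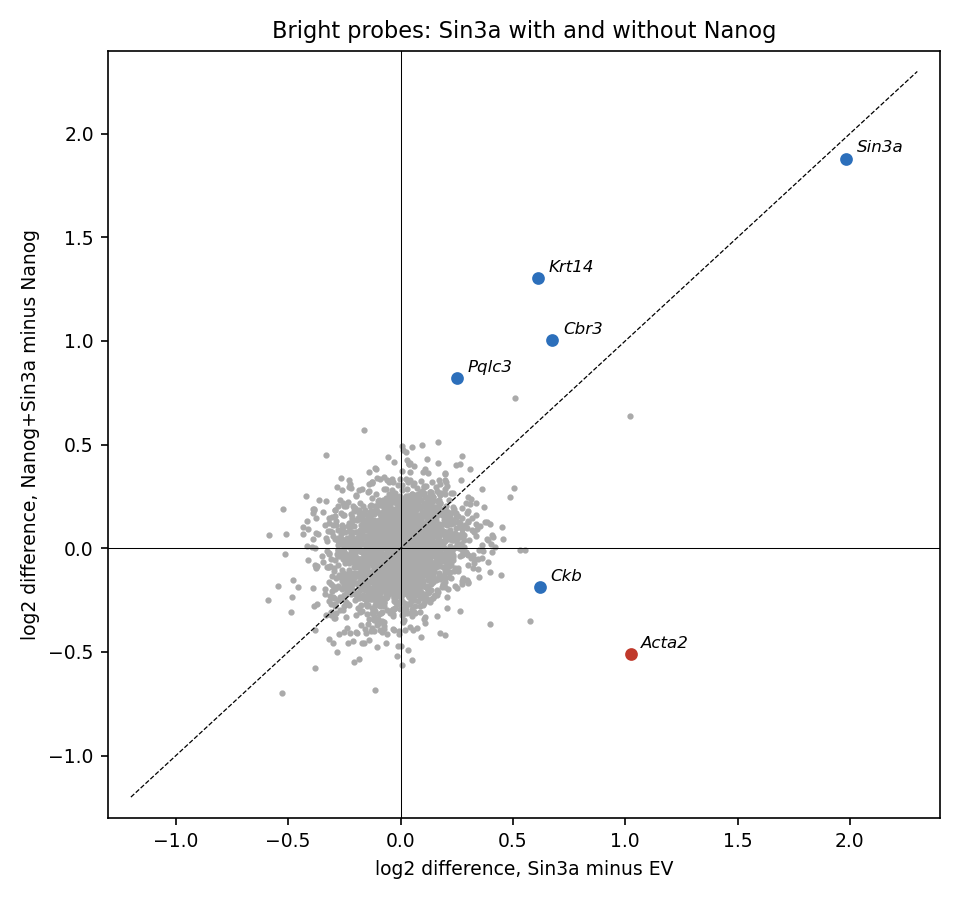
Log2 difference of Nanog+Sin3a from Nanog (vertical axis) against that of Sin3a from EV (horizontal axis) for the 2670 bright probes, with a dashed line where the 2 differences are equal. The red point, Acta2, is the 1 probe whose difference of effects passed, at 1.02 without Nanog and -0.51 with it. Blue points are the other labelled genes, which did not pass that test.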

How the data were processed

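RNA of 8 samples was measured on Illumina bead arrays. The deposited values are linear intensity per probe, made by the authors with GenomeStudio per the submitters' processing notes, which give no version or settings. On every array 47.3% to 47.7% of them lay below 0, and sorted values differed from those of the first Nanog array by at most 0.741% (4.31% on the second Sin3a array). They were therefore used as deposited, as background-subtracted and quantile-normalised values, a reading taken from the values alone. The second Sin3a array is noisy: the mean absolute log2 gap between replicates was 1.15 for Sin3a, against 0.299 for Nanog+Sin3a, 0.284 for Nanog and 0.171 for EV. The number of arrays limits the precision.

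Values were floored at 16 and converted to log2. By the platform annotation 34885 probes have a single symbol, 18 have several and 10378 have none. Lookup by gene ID in a RefSeq table matched 34807 probes and changed 0 symbols. A gene was read from its probe of highest mean value over the 4 arrays, and 2385 tested probes had no single symbol.

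Nanog+Sin3a was compared with Nanog in R 4.3.3 with limma 3.58.1 (lmFit and eBayes with an intensity trend, two-sided, Benjamini-Hochberg adjustment at 0.05). The fit held the Nanog+Sin3a, Nanog and EV arrays with 1 coefficient per group, which left 3 residual degrees of freedom. The difference of Sin3a effects with and without Nanog used all 8 arrays on bright probes. The procedure was tested on simulated data. Figures were drawn with matplotlib 3.10.9.

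Members, tests and the 42 gene lists were chosen with earlier results of these data known, and the histone list was corrected after its first match caught unrelated genes. Named genes were Sin3a, Nanog and, in each direction, up to 12 that passed without overlap, filled up to 12 by genes at least 1 apart on the log2 scale, free of overlap and above 64 on both arrays of the higher group. On the higher side these were the first 4 of 12 such genes and on the lower side all 3. For each list, up to 4 members that passed or the 2 with the largest differences were named. Genes named beyond this rule, and those near the threshold, were chosen after their values were seen. Alternatives changed the arrays fitted, the floor, the filter, the centring, the trend and the replicate block, and left out each array in turn.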

Additional observations from a re-analysis of the deposited data

Results flagged for a closer look

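The effect of Sin3a on Acta2, the smooth muscle actin, differed with and without Nanog by -1.54 on the log2 scale in the limma fit of bright probes (adjusted p = 0.000812), with 566.2 and 443.3 intensity units with Nanog+Sin3a, 710.7 and 718.0 with Nanog, 850.8 and 940.3 with Sin3a, and 473.5 and 408.2 with EV.

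Among the 12 named genes outside the bright probes, 3 moved in opposite directions with and without Nanog on every array, a difference that was not tested. The gap between the 2 effects was 3.48 for Plpp3, -2.2 for Stk32a and -1.61 for Cav1 on the log2 scale. Each rests in part on the second Sin3a array, which is noisy at such intensities.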

How the results depend on the processing

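None of the 8 genes called changed sign under an alternative that tested it. Their groups did not overlap, so leaving out an array or moving the floor could not have changed the sign. Among members that did not pass and overlapped between the groups, Mobp was at 0.00 but at -0.50 with a floor of 8 and -0.43 without a floor. Chd3, Trp53inp1, Magel2 and Cd24a changed sign when 1 array was left out, to 0.02, -0.02, -0.12 and 0.01. With 10 probes and 8 genes called as reported, the counts were 5 probes and 4 genes with only the Nanog+Sin3a and Nanog arrays, 0 and 0 with all 8 arrays (smallest adjusted p = 0.094), and 4 and 2 without the intensity trend. A floor of 32 gave 25 probes (23 up, 2 down) and 21 genes, and a floor of 8 gave 6 probes. No floor and no filter, with log2(intensity + 50), gave 30 probes (26 up, 4 down) and 24 genes. Probes above 16 on all 4 arrays gave 44 (35 up, 9 down) and 33 genes, and bright probes alone gave 5 probes and 5 genes. All 10 probes were among the 18 called under the floor of 32, without a floor and with the stricter filter alike. Median centring and quantile normalisation each gave 10 probes and 8 genes. Neither could change much, since the tested probes already had the same median log2 value (6.46) on every array fitted. Testing 1 probe per gene, an alternative chosen after seeing the data, gave 10 genes. Leaving out 1 array gave 0 to 5 probes and 0 to 4 genes, where a lone array was assumed to vary like the other groups. The Sin3a probe stayed at 1.88 (log2) but did not pass with all 8 arrays (limma adjusted p = 0.094) or without the trend (0.0812), and it ranged from 1.65 to 2.11 with 1 array left out. The count for the difference of Sin3a effects ranged from 0 to 21 with 1 array left out. Arrays of the same number did not deviate together across probes (r = -0.0585 between Nanog+Sin3a and Nanog). The labels give them a shared number only, and this value cannot tell whether they shared a culture or a day. The replicate block gave 8 probes and 6 genes, and 1 for the difference of effects. Probes near the floor limit what these arrays can show.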

Other observations

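Housekeeping machinery was read through further lists, and 0 of their members passed. Over all genes, 20.7% were higher and 18.2% lower without overlap. Of 53 measured cytosolic ribosomal protein genes, 15 were higher (28.3%) and 5 lower (9.43%) without overlap, with a median of 0.04. Rpl22 read 481.6 and 528.5 with Nanog+Sin3a, against 405.8 and 354.7 with Nanog (log2 0.41), and Rps25 differed by 0.50. Of 56 histone genes, 16 were higher (28.6%) and 6 lower (10.7%) without overlap, with a median of 0.06. The dim genes H1f1 (0.82) and H2bc3 (0.75) led the list. Of 79 genes of the respiratory chain and ATP synthase, 6 were higher (7.59%) and 20 lower (25.3%) without overlap, with a median of -0.02. Ndufa7, a complex I subunit, read 1441.1 and 1540.6 with Nanog+Sin3a, against 1917.9 and 2244.8 with Nanog (-0.48, limma adjusted p = 0.226). Cox7a1 overlapped at -0.55. The medians were -0.02 for 73 mitochondrial ribosomal protein genes, -0.06 for 39 proteasome genes, 0.01 for 31 chaperones, -0.09 for 27 genes of ribosome biogenesis, 0.04 for 17 aminoacyl-tRNA synthetases, -0.04 for 19 lysosomal genes and 0.01 for 11 housekeeping genes. In the same order of lists, the members with the largest differences were Mrpl39 (-0.63) and Mrpl50 (0.46), Psmd2 (-0.71) and Psme1 (-0.34), Cct5 (-0.40) and Hspe1 (-0.39), Polr1b (-0.32) and Pa2g4 (-0.24), Eprs (-0.59) and Gars (0.41), Cd63 (-0.47) and Tpp1 (-0.47), and Rpl13a (0.37) and Pgk1 (-0.27).

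Metabolic and epigenetic lists gave no member that passed either. Of 27 genes of glycolysis and hypoxia, 10 were higher (37%) and 5 lower (18.5%) without overlap, with a median of 0.09. Eno2, a neuronal enolase, read 41.2 and 69.5 with Nanog+Sin3a, against 32.8 and 25.9 with Nanog (0.88). Ldhb, at the floor with Nanog, differed by 0.64. Of 26 genes of cholesterol and fatty acid synthesis, 5 were higher (19.2%) and 9 lower (34.6%) without overlap, with a median of -0.02. Fasn, the fatty acid synthase, read 13.1 and 19.7 with Nanog+Sin3a, against 42.6 and 30.8 with Nanog (-1.03). The desaturase Fads2 differed by -0.56. The integrated stress response and amino acid transport list had a median of 0.04 over 26, with Slc7a3, a carrier of cationic amino acids, at 252.5 and 263.4 with Nanog+Sin3a and 377.5 and 342.5 with Nanog (-0.48), and Vldlr, at the floor with Nanog, at 0.93. The DNA methylation list had a median of -0.15 over 10, with Tet1 at -0.76 and Tdg at -0.33. Imprinted genes had a median of 0.15 over 13, with Cdkn1c at -0.84 and Magel2 at 0.65. Germline and 2-cell-like genes had a median of 0.34 over 5, with 3 higher (60%) and 1 lower (20%) without overlap. Gm428 (0.66) and Zscan4c (-0.56) were near the floor.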
